A study of Mus musculus with 72 samples.

Results

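The ubiquitin-specific proteases are the largest family of deubiquitinases, cysteine proteases that remove ubiquitin from proteins. Its members were taken here as the probe sets whose gene symbol is Usp followed by a number and at most 1 letter, with 1 probe set for each symbol, which gave 50 of the 20239 named genes on the array. Expression was measured in 36 adult mice of the C57BL/6 background, all males aged 5 months, in 2 hindlimb muscles of every animal, the slow soleus (SOL) and the fast tibialis anterior (TA). Animals were killed at Zeitgeber time (ZT) 0, 4, 8, 12, 16 and 20 under a daily cycle with light from ZT0 to ZT12 and darkness after it. The 18 mKO animals carried floxed Bmal1 (symbol Arntl) and a Cre recombinase driven by the Mlc1f promoter, which acts in skeletal muscle fibres, and the 18 Ctrl animals were littermates without Cre. Each of the 24 groups of muscle, genotype and time held 3 animals. An effect of Cre itself and that of the loss of Bmal1 cannot be told apart in these groups, and the promoter does not target nerve, vessel and immune cells of the muscle. Fewer cells of a type and less RNA per cell cannot be told apart in whole muscle.

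Ubiquitin chains mark proteins for the proteasome or change their location and partners, and each protease of the family trims the chains of its own set of substrates. Bmal1 forms with Clock the activator of the circadian loop, which binds E-box motifs and drives the period, cryptochrome and nuclear receptor repressors as well as output genes such as Dbp. Usp2 is among the genes whose RNA cycles in many mouse tissues, and its protein has been reported to act on period, cryptochrome and Bmal1 proteins, on cyclin D1 and on the ubiquitin ligase Mdm2.

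The 300 bases around the start of a gene (250 before and 50 after it) are shown for 4 members, in RefSeq's annotation of build GRCm38.p6. Usp2 was chosen because it changed most with genotype in TA, and Usp28 because it rose in both muscles. The windows of Usp4 and Usp31 hold an E-box. Motifs were not tested against genotype effects or rhythms. Usp2 is read on the plus strand at chr9:44084670-44084969, Usp4 on the plus strand at chr9:108347581-108347880, Usp31 on the minus strand at chr7:121707393-121707692 and Usp28 on the plus strand at chr9:48985135-48985434. The E-box CACGTG, the GC box GGGGCGGGG and the short cyclic AMP response site TGACGTC are in capitals.
Usp2: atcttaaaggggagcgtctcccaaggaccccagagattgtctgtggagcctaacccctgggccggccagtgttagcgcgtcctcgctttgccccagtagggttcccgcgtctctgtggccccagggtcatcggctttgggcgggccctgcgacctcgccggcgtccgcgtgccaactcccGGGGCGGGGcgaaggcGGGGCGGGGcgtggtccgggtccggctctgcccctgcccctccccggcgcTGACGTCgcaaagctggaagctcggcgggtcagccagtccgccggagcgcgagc
Usp4: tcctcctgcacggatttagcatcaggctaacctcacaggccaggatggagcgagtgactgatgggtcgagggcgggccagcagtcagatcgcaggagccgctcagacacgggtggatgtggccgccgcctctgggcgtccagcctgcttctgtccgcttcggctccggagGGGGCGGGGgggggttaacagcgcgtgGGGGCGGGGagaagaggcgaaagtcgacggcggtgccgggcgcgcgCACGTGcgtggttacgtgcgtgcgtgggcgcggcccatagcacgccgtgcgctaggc
Usp31: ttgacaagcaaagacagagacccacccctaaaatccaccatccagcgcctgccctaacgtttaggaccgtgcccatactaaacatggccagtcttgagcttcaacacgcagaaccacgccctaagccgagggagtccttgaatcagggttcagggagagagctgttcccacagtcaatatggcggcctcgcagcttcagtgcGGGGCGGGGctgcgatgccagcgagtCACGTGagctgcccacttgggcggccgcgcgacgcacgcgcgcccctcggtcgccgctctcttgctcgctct
Usp28: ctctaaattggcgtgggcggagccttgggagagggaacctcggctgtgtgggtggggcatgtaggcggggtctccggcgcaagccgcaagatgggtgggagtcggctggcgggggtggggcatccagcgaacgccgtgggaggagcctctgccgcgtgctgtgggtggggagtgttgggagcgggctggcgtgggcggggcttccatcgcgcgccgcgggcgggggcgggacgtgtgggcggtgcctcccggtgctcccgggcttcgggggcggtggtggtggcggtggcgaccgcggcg

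A window was given for 38 of the 50 members, and the motifs were searched on both strands. The E-box CACGTG lay in 4 member windows (Usp4, Usp16, Usp31 and Usp32) and in 7.15% of all 32851 windows. The Usp2 window held no CACGTG, which says only that these letters are not in this window. It held the GC box at positions -70 and -54 from the start and TGACGTC at -4. TGACGTC was present in 3.21% of all windows and, among members, in those of Usp2 and Usp29. The full palindrome TGACGTCA, which contains it, was in that of Usp29 and in 1.79% of all windows. The variant E-box CACGTT lay in 4 member windows (Usp3, Usp24, Usp36 and Usp50) against 4.68% of all. The D-box forms TTATGTAA (0.938% of all windows) and TTACGTAA (0.119%) and the nuclear receptor element TAGGTCA (2.61%) were in no member window. The GC box lay in 11 member windows and in 11.4% of all. The Usp2 window was 71.7% G and C, that of Usp4 69.7%, that of Usp31 61.7% and that of Usp28 74.7%.

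Array medians lay between 6.67 and 6.84 (log2). The signal of Arntl itself had a median of 7.79 in Ctrl SOL (lowest 6.55, highest 9.27, n = 18) and of 7.89 in mKO SOL (7.08 to 8.53), with 8.22 (6.84 to 9.37) and 8.19 (7.40 to 8.48) in Ctrl and mKO TA. These ranges overlap. The sources used here do not say whether the probes cover the floxed exon, so the mean level does not check the genotype labels. The mean of the 14 measured fibre markers was 12.9 to 13.2 in SOL and 11.9 to 12.2 in TA. Single markers changed with genotype: in SOL the slow fibre genes Myh7 (-0.11, adjusted p = 0.00601) and Tnnt1 (-0.17, 0.0272), Mbp of Schwann cells (-0.28, 4.43e-05) and Fmod of tendon (-0.30, 0.0241) fell, and Scx of tendon (0.28, 5.65e-05) and Kdr of endothelium (0.22, 0.00287) rose. In TA Mb (0.12, 0.0202) and Cdh15 of satellite cells (0.16, 0.00553) rose, and Vwf, Dcn, Retn and Tagln fell by 0.10 to 0.19. In SOL these were 2 of 14 fibre, 1 of 7 endothelial and 1 of 4 Schwann markers. Of 8 fibroblast and tendon markers 1 rose and 1 fell there. In TA each was the only call of its list of 4 to 14 markers. Of all genes 3.56% rose and 3.54% fell in SOL, and 6.76% and 8.06% in TA. The other markers of these lists were not called, and some differed in the opposite direction. The part of these cells in the results was not tested. Liver transcripts were raised in 2 Ctrl animals, in both muscles. The mean of 15 liver genes was 10.7 in TA and 6.27 in SOL of animal A at ZT0, and 7.56 in TA and 7.23 in SOL of animal C at ZT4, against a median of 5.48 on the other arrays. Animal numbers fall into series named BM3, BM2* and BM2 in the labels, which do not say what they are. All animals at ZT0 and ZT4 are BM3 and all at ZT12 are BM2 or BM2*, so the times differ in series as well. At ZT8 each genotype has 2 BM3 animals and 1 BM2* animal. At ZT16 the 3 mKO animals are BM3 and the Ctrl animals are 1 BM3 and 2 BM2*. At ZT20 the 3 Ctrl animals are BM3 and the 3 mKO animals BM2, so series and genotype cannot be told apart at that time.

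In SOL, Usp2 was lower in mKO than in Ctrl around the end of the light phase and overlapped with it at the other times. At ZT0 the Ctrl animals had log2 signals of 10.24, 10.49 and 10.46 and the mKO animals 10.56, 10.41 and 10.36. At ZT4 the Ctrl values were 10.18, 10.15 and 10.11 and the mKO values 10.03, 10.04 and 10.12. Genotypes overlapped at both of these times. At ZT8 the Ctrl values were 11.03, 11.08 and 11.21 and the mKO values 10.57, 10.75 and 10.61. At ZT12 the Ctrl values were 11.46, 11.27 and 11.48 and the mKO values 11.02, 10.95 and 11.10. At ZT16 the Ctrl values were 11.31, 11.17 and 11.31 and the mKO values 11.08, 10.97 and 11.09. All 3 mKO animals lay below all 3 Ctrl animals at each of ZT8, ZT12 and ZT16. The difference at ZT16 was -0.21 and was not called. Counting Usp2, 6, 8 and 2 of the 50 members lay wholly below in mKO at these times, and 3, 2 and 3 wholly above. The share of all genes without overlap was not counted. At ZT20 the Ctrl values were 10.97, 10.69 and 10.74 and the mKO values 10.93, 10.71 and 10.51, which overlapped again.

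Over the 6 times Usp2 fell in SOL by 0.19 ± 0.038 (log2, mKO minus Ctrl, standard error) with an adjusted p of 7.5e-04 (limma's moderated test on 36 arrays, Benjamini-Hochberg over 20239 genes, threshold 0.05). It was 1 of 6 members called in that muscle, against 7.1% of all genes. At single times it fell at ZT8 by 0.46 ± 0.094 (adjusted p = 0.00604) and at ZT12 by 0.38 ± 0.094 (adjusted p = 0.0482), where 0.86% and 0.751% of all genes were called. No other member was called at ZT8 or ZT12 in SOL, and none at the other times, where 2 to 6 members had an unadjusted p under 0.05 (ZT0, 0.553% of genes called; ZT4, 0.44%; ZT16, 0.944%; ZT20, 1.04%). Within the BM3 animals alone the difference in SOL was -0.13 (adjusted p = 0.336) and within the BM2 and BM2* animals -0.43 (adjusted p = 0.0624), so neither passed the threshold. Both genotypes were present only at ZT0, ZT4, ZT8 and ZT16 in BM3 and only at ZT8 and ZT12 in BM2 and BM2*. These values therefore cover different times, and series and time cannot be told apart in them. The call at ZT8 was lost without mKO animal A (adjusted p = 0.0612) or Ctrl animal C of that time (0.0692), and that at ZT12 in 26 of 36 fits that each left out 1 animal.

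**Figure D1:**
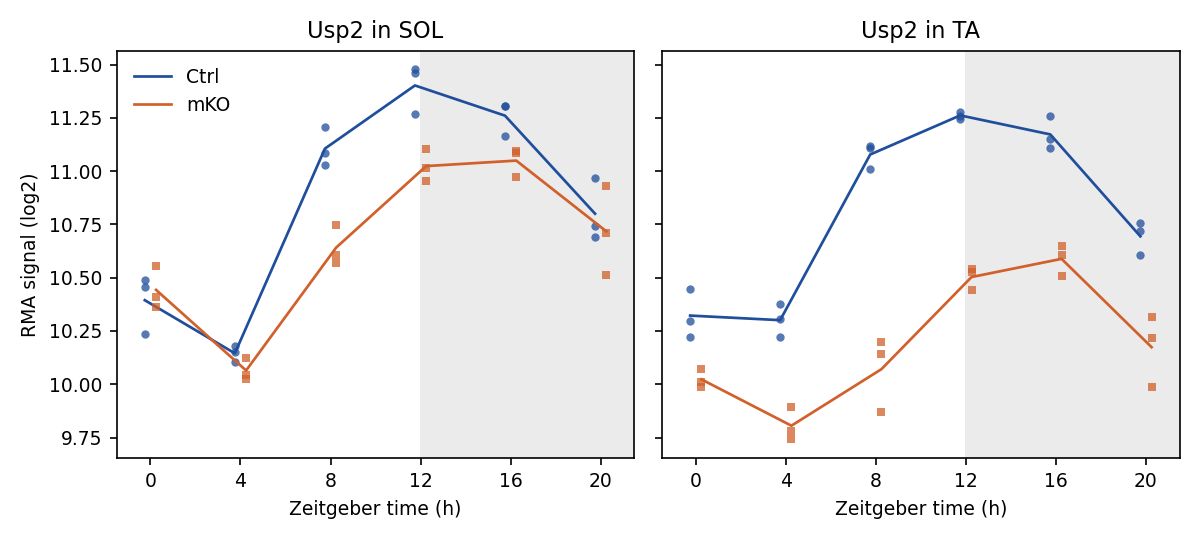
RMA signal of Usp2 (log2) against Zeitgeber time in hours, SOL on the left and TA on the right. Each point is 1 animal (circles Ctrl, squares mKO), lines join the means of 3 animals and the dark phase is grey. The mKO points lie below the Ctrl points at ZT8, ZT12 and ZT16 in SOL and at all 6 times in TA.

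In TA, Usp2 was lower in mKO at every time, with no overlap between genotypes at any of the 6. Counting Usp2, 4 to 13 of the 50 members lay wholly below in mKO at single times, and 1 to 6 wholly above. The share of all genes was not counted here either. At ZT0 the Ctrl animals had 10.30, 10.45 and 10.22 and the mKO animals 9.99, 10.07 and 10.01. At ZT4 the Ctrl values were 10.38, 10.31 and 10.22 and the mKO values 9.89, 9.74 and 9.78. The gap was widest at the next time. At ZT8 the Ctrl values were 11.01, 11.11 and 11.12 and the mKO values 10.14, 10.20 and 9.87. At ZT12 the Ctrl values were 11.26, 11.25 and 11.28 and the mKO values 10.44, 10.54 and 10.53. Ctrl muscle was near its peak at both of these times. At ZT16 the Ctrl values were 11.15, 11.26 and 11.11 and the mKO values 10.61, 10.65 and 10.51. At ZT20 the Ctrl values were 10.72, 10.76 and 10.61 and the mKO values 10.22, 10.32 and 9.99.

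Over the 6 times Usp2 fell in TA by 0.61 ± 0.034 (limma, adjusted p = 2.63e-14), which is 1.53-fold, and it had the largest genotype effect of the 50 members there. In TA 14 members were called, against 14.8% of all genes. At single times it fell by 0.50 at ZT4 (adjusted p = 0.000524), by 1.01 at ZT8 (2.89e-09), by 0.76 at ZT12 (4.72e-07), by 0.58 at ZT16 (4.09e-05) and by 0.52 at ZT20 (0.000221), each ± 0.084. At ZT0 the difference was -0.30 ± 0.084 and did not pass the threshold (adjusted p = 0.0711). The shares of all genes called at these times were 1.67%, 2.03%, 2.52%, 2.02% and 1.99%, with 1.63% at ZT0. Within the BM3 animals the difference in TA was -0.53 (adjusted p = 2.25e-06) and within the BM2 and BM2* animals -0.88 (adjusted p = 0.000214). As in SOL, the BM2 and BM2* value compares the genotypes at ZT8 and ZT12 only, and the BM3 value at ZT0, ZT4, ZT8 and ZT16.

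The genotype effect on Usp2 differed between the muscles of the same animals. The difference TA minus SOL within an animal ranged from -0.25 to 0.20 in Ctrl, with a median of -0.033, and TA was the lower muscle in 11 of 18 animals. In mKO it ranged from -0.73 to -0.13, with a median of -0.45, and TA was lower in 18 of 18. The mean difference between muscles was -0.046 ± 0.033 in Ctrl (adjusted p = 0.282), while TA was 0.46 ± 0.033 below SOL in mKO (adjusted p = 3.72e-13). The interaction, the genotype effect in TA minus that in SOL, was -0.42 ± 0.047 (limma on differences within 36 animals, adjusted p = 4.86e-07). Usp2 was the only one of the 50 members called in this test, against 2.71% of all genes, and 8 members had an unadjusted p under 0.05. At single times the interaction lay between -0.54 and -0.35, and it passed the threshold at ZT8 (adjusted p = 0.0351). It was -0.39 within the BM3 animals (adjusted p = 0.000850) and -0.45 within the BM2 and BM2* animals (adjusted p = 0.475), again over different times. With array weights 4 members were called, over genes above the median level 3, and with the muscles unpaired 2. A second member was also called without any 1 of mKO animal C at ZT0, Ctrl animal C at ZT8, mKO animal C at ZT12 and mKO animal C at ZT20.

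**Figure D2:**
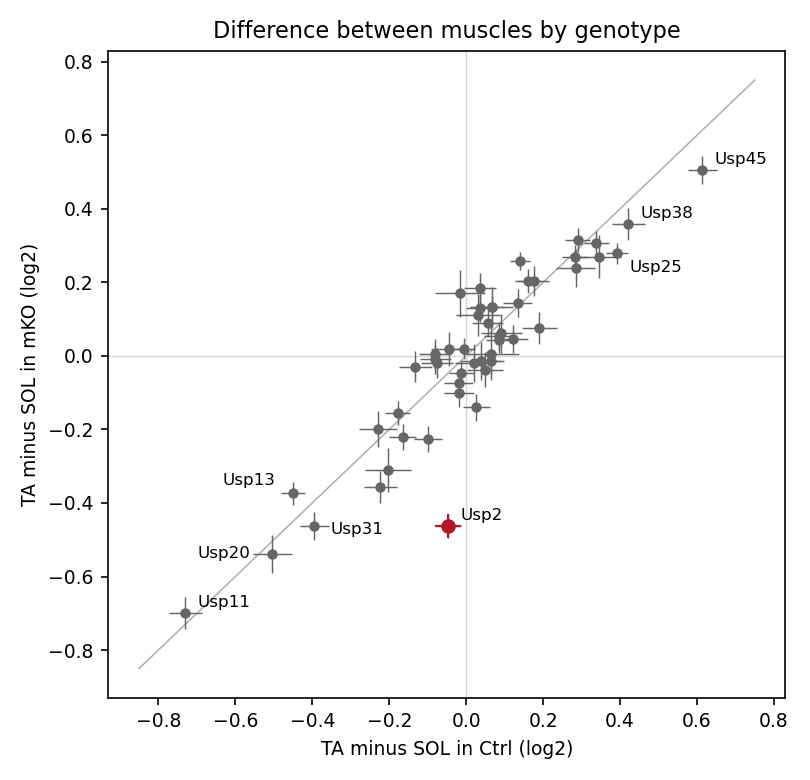
Difference between muscles (TA minus SOL within animals, log2) in mKO against that in Ctrl, 1 point for each of the 50 members with standard errors over 18 animals per genotype. The line marks equal differences, and Usp2 (red) lies off it at -0.046 in Ctrl and -0.46 in mKO.

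The same test was read for genes of the clock and its output, which share the animals. Among 14 measured clock genes 2 had a called positive interaction and 6 a negative one, against 2.71% of all genes called in either direction. Nr1d2, a nuclear receptor repressor of the loop, had an interaction of -0.71, with genotype effects of -0.82 in SOL and -1.53 in TA. Npas2, a partner of Bmal1, had 0.74 with effects of 0.85 and 1.59. Bhlhe41, the other clock gene with a called positive value, went the other way in size. It fell more in SOL (-0.68) than in TA (-0.30), with an interaction of 0.38 (adjusted p = 0.0273 by limma). Of the 4 output factors 3 had a called negative interaction, with -0.86 for Dbp, -0.51 for Hlf and -0.24 for Tef, and Nfil3 had 0.095 (adjusted p = 0.597). The 5 named genes outside the family whose 24 group means followed those of Usp2 most closely were Stk35 (Pearson r = 0.94), Per2 (0.93), Cep85l (0.91), Klf6 (0.91) and Mn1 (0.91), a description over groups that share arrays with Usp2. Within the family Usp54 (0.76), Usp49 (0.70), Usp53 (0.61) and Usp22 (0.51) came next to it.

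Usp2 cycled in both muscles of both genotypes. A cosine of 24 h had an amplitude, the log2 distance from mean to peak, of 0.62 ± 0.051 in Ctrl SOL with the peak at ZT13.5 (limma's moderated F test, adjusted p = 2.23e-10). In mKO SOL it was 0.46 ± 0.051 at ZT14.8 (adjusted p = 4.06e-07). In Ctrl TA it was 0.54 ± 0.040 at ZT13.0 (adjusted p = 7.78e-11) and in mKO TA 0.37 ± 0.040 at ZT14.9 (adjusted p = 1.25e-06). The lowest group mean was at ZT4 in all 4, and the highest at ZT12 in Ctrl and at ZT16 in mKO. The animals at ZT4 are BM3 and those at ZT12 BM2 or BM2*, and with the series as a block the rhythm of Usp2 was called in all 4 (largest adjusted p 2.58e-06, in mKO SOL). From lowest to highest mean the signal changed 2.39-fold in Ctrl SOL, 1.98-fold in mKO SOL, 1.95-fold in Ctrl TA and 1.72-fold in mKO TA. Usp2 had the largest amplitude of the 50 members in all 4, and it ranked 51, 86, 92 and 127 among the 20239 genes in Ctrl SOL, mKO SOL, Ctrl TA and mKO TA. The median amplitude of the 49 others was 0.052 to 0.073, near that of all genes (0.065 to 0.077).

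The change of the Usp2 rhythm with genotype did not pass the threshold in the joint test of amplitude and phase, with an adjusted p of 0.812 in SOL (unadjusted 0.00843) and of 0.112 in TA (unadjusted 0.000138). The amplitude was lower in mKO by 0.16 in SOL (95% interval of the difference from -0.30 to -0.0097) and by 0.17 in TA (-0.28 to -0.051), and the fitted peak was 1.29 h and 1.87 h later. No member was called for a change of rhythm, against 0.0395% of genes in SOL and 0.104% in TA, where 3 and 4 members had an unadjusted p under 0.05. The change of Usp2 in TA passed the threshold with the animals' series as a block (adjusted p = 0.0376), with a trended robust variance (0.0438), over genes above the median level (0.0390) and without mKO animal C at ZT20 (0.0115). Between the muscles of Ctrl no member was called for a difference in rhythm (0.524% of genes, limma), 4 members had an unadjusted p under 0.05, and Usp2 had an adjusted p of 0.689.

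**Figure D3:**
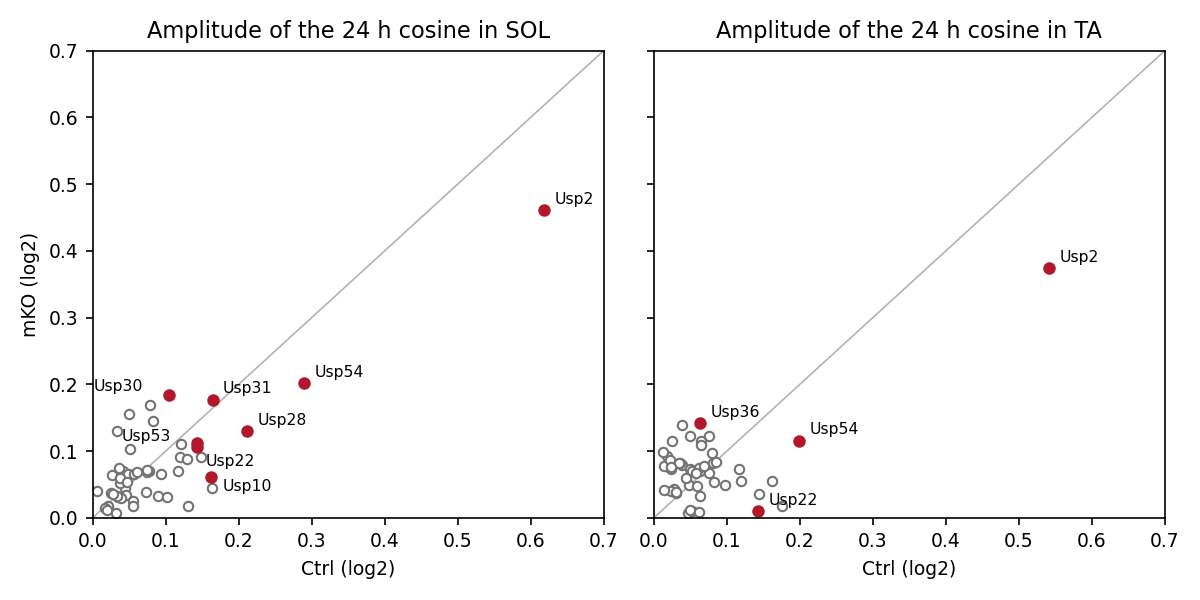
Amplitude of the 24 h cosine (log2) in mKO against Ctrl for the 50 members, SOL on the left and TA on the right. Filled points are members with a called rhythm in either genotype, the line marks equal amplitudes, and Usp2 stands at 0.62 and 0.46 in SOL and at 0.54 and 0.37 in TA.

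Among the other members the called rhythms had amplitudes of at most 0.29. In Ctrl SOL 7 members were called including Usp2, against 6.05% of all genes. Usp54, classed in earlier surveys as lacking protease activity, had the next largest amplitude, 0.29 ± 0.048 with a peak at ZT13.9 (adjusted p = 0.000268). Its Ctrl SOL values were 7.62, 7.49 and 7.97 at ZT12 and 7.18, 6.97 and 6.99 at ZT4, the times of its highest and lowest group means. Usp31 peaked late in the dark phase (amplitude 0.16, ZT20.1, adjusted p = 0.00710), and Usp10, which stabilises p53, near lights on (0.16, ZT0.42, adjusted p = 0.00833). Usp28 (0.21, ZT6.75), Usp22, the deubiquitinase of the SAGA coactivator (0.14, ZT10.8), and Usp53 (0.14, ZT12.2) had adjusted p-values of 0.0277, 0.0377 and 0.0394. In place of 7, 3 members were called under a free shape over the 6 times, 3 with an added 12 h cosine, 4 with arrays centred on their medians and 4 without Ctrl animal C at ZT8.

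In mKO SOL 4 members were called, against 5.68% of all genes. Usp31 had an amplitude of 0.18 there with a peak at ZT20.1 (adjusted p = 0.00379), Usp54 0.20 at ZT13.4 (0.0194) and Usp30, which sits on mitochondria, 0.18 at ZT8.41 (0.0239). In Ctrl TA 3 members were called, against 2.7% of all genes: Usp2, Usp22 (0.14 ± 0.027, ZT12.0, adjusted p = 0.00370) and Usp54 (0.20 ± 0.039, ZT11.8, adjusted p = 0.00485). The amplitude of Usp22 in mKO TA was 0.010, and its change of rhythm had an unadjusted p of 0.00224 and an adjusted p of 0.560. In mKO TA 2 members were called, against 1.76%: Usp2 and Usp36, a nucleolar member (0.14, ZT18.1, adjusted p = 0.0386), whose call was lost in 10 of the 36 fits that left out 1 animal. Under a free shape over the 6 times 2 members were called in mKO SOL and 1 in mKO TA, and 1 was called in mKO TA with an added 12 h cosine or centred arrays.

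**Figure D4:**
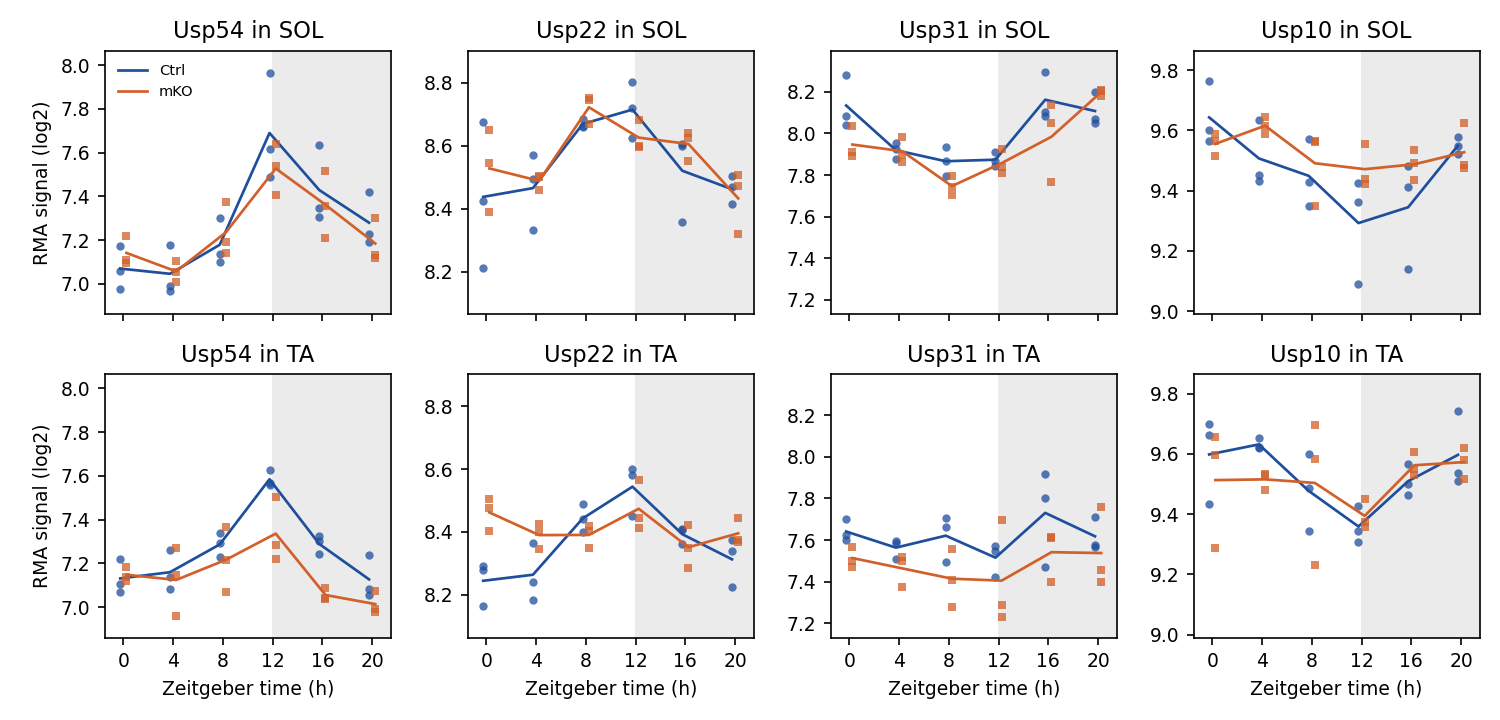
RMA signal (log2) of Usp54, Usp22, Usp31 and Usp10 against Zeitgeber time in hours, SOL above and TA below, with the same scale for both muscles of a gene. Each point is 1 animal (circles Ctrl, squares mKO), lines join means and the dark phase is grey. Usp54 was highest at ZT12 in both muscles, while Usp31 in SOL peaked in the dark phase in both genotypes.

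Besides Usp2, the genotype changed 5 members in SOL and 13 in TA, by at most 0.27 (log2). In SOL 1 member rose and 5 fell, counting Usp2, against 3.56% and 3.54% of all genes. In TA 2 rose and 12 fell, against 6.76% and 8.06%. The median over the 50 members was -0.014 in SOL and -0.035 in TA, beside 0.00091 and 0.020 over all genes. Called in both muscles were Usp2, Usp12, Usp24, Usp28 and Usp49, 5 of the 6 in SOL and 5 of the 14 in TA. The share of all genes called in both muscles was not counted. The calls of Usp28 in TA and of Usp49 in SOL were each lost in 24 of 36 fits that left out 1 animal. In total 17 members in SOL and 20 in TA had an unadjusted p under 0.05. The share of all genes at that unadjusted threshold was not counted, so these counts give no result about the family.

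Members acting in DNA damage and p53 signalling, 8 in number, held 1 riser and 2 that fell in each muscle. Of all genes 3.56% rose and 3.54% fell in SOL, and 6.76% and 8.06% in TA. These shares apply to each role group below as well, and groups this small give no result about a function. Usp28, which binds a DNA damage mediator and stabilises Myc, had a median of 9.42 in Ctrl SOL (9.02 to 9.88, n = 18) and of 9.63 in mKO SOL (9.36 to 10.09), and of 9.19 (8.92 to 9.49) and 9.39 (9.08 to 9.59) in TA. Ranges overlapped in both muscles. Its rise was 0.27 ± 0.054 in SOL (adjusted p = 0.000805 by limma), while in TA it was 0.17 ± 0.057 (adjusted p = 0.0474), with a higher mKO mean at all 6 times in each. Usp24 fell by 0.14 in SOL (adjusted p = 0.000498) and by 0.12 in TA (0.0124). Usp7, which deubiquitinates Mdm2 and p53, fell by 0.15 in SOL (0.0131) and differed by -0.12 in TA (0.107). Usp47, linked to base excision repair, fell by 0.19 ± 0.030 in TA (1.91e-05) and differed by -0.065 in SOL (0.533), and at single times it fell in TA at ZT12 by 0.33 (0.00820). The differences of Usp1, Usp10, Usp29 and Usp42 passed no threshold.

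Of 10 members of growth factor signalling and endosomes, 1 fell in SOL, and 1 rose and 2 fell in TA. Usp4, which acts on the TGF-beta receptor, had a median of 10.10 in Ctrl TA (10.01 to 10.24) and of 10.28 in mKO TA (10.18 to 10.40). It rose there by 0.17 ± 0.026 (limma, adjusted p = 8.07e-06), higher at all 6 times, and differed by 0.054 in SOL (0.254). Usp12, which works with the cofactor Wdr48, fell by 0.16 in SOL (0.0122) and by 0.21 in TA (0.00149). Its partner by sequence Usp46 differed by -0.13 in SOL (0.0582) and -0.098 in TA (0.218). Usp34, which acts in Wnt signalling, fell by 0.11 in TA (0.0407). Usp8, Usp9x, Usp11, Usp15, Usp20 and Usp33 were called in neither muscle.

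**Figure D5:**
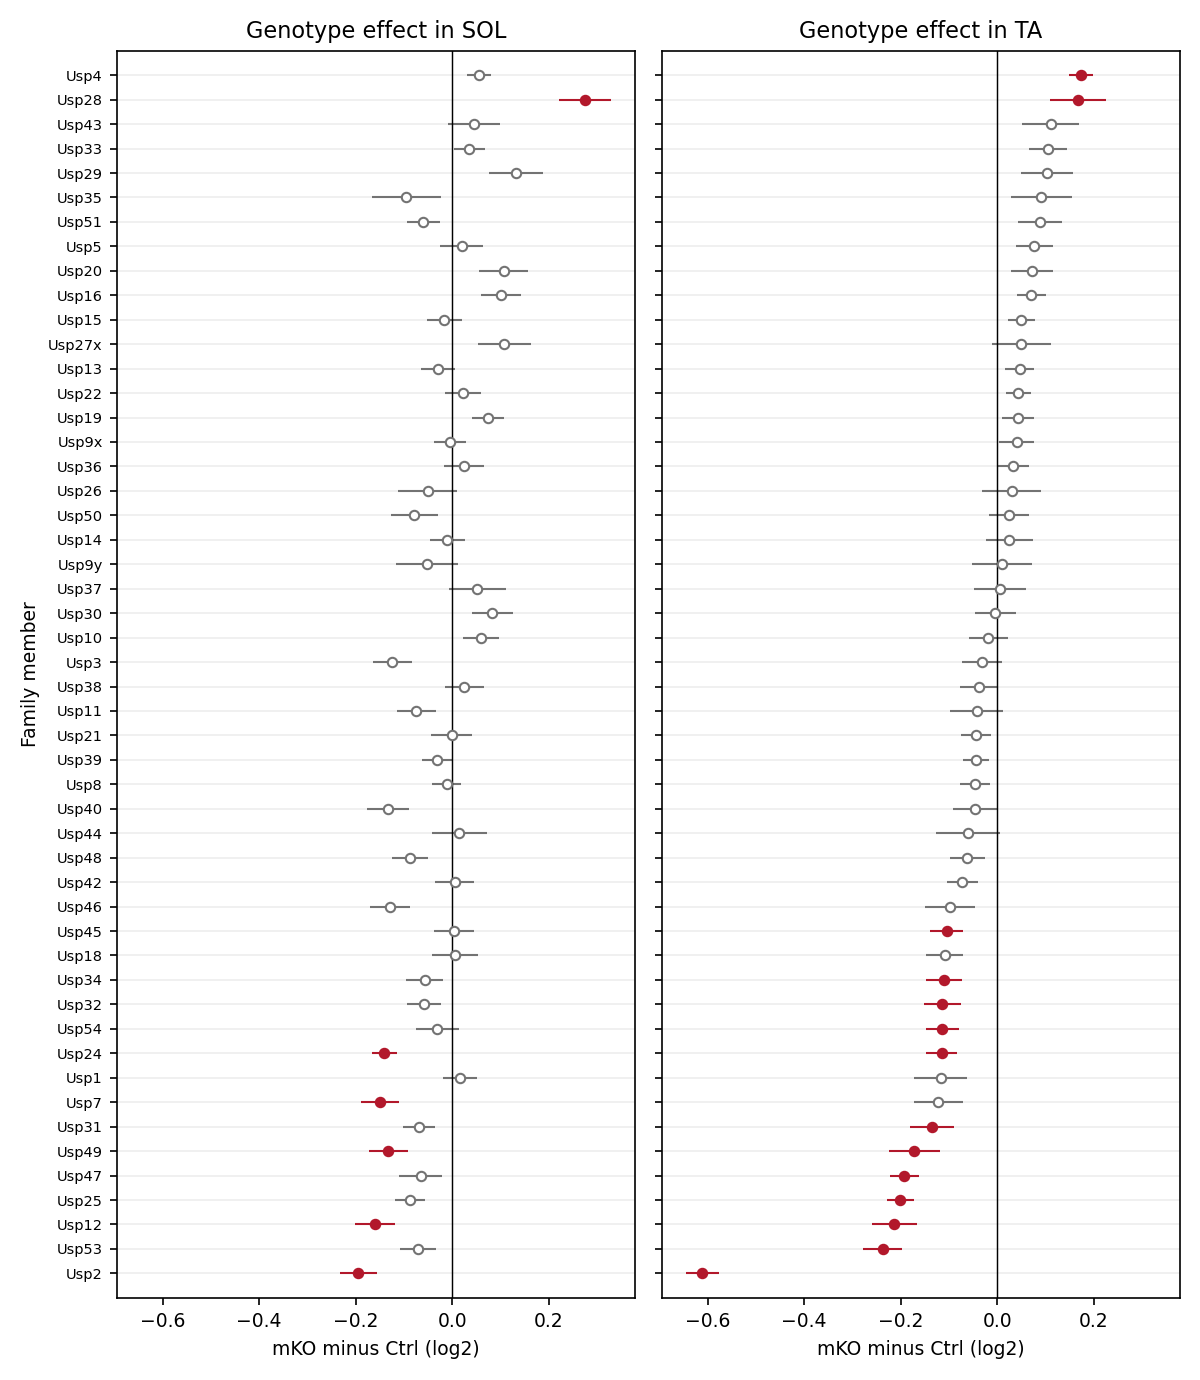
Genotype effect (mKO minus Ctrl, log2, mean over 6 times) of the 50 members in SOL (left) and TA (right), ordered by the effect in TA, with standard errors from 36 arrays per muscle. Filled points passed an adjusted p of 0.05, and Usp2 lies at -0.19 in SOL and at -0.61 in TA.

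Of 9 histone and chromatin members only Usp49, which removes ubiquitin from histone H2B, was called, and it fell by 0.13 in SOL (adjusted p = 0.0459 by limma) and by 0.17 in TA (0.0253). Usp3, Usp16, Usp21, Usp22, Usp27x, Usp36, Usp44 and Usp51 were not. The 3 members tied to the proteasome or to free ubiquitin chains, Usp5, Usp13 and Usp14, were called in neither muscle. Of the 2 members of interferon and innate immune signalling, Usp25 fell in TA by 0.20 ± 0.027 (1.97e-06), at ZT4 by 0.26 (0.0397), while Usp18, which removes ISG15, differed by -0.11 (0.0552). Of the 3 members classed as lacking deubiquitinase activity, Usp53 fell in TA by 0.24 ± 0.040 (5.46e-05), at ZT12 by 0.44 (0.00796), Usp54 fell by 0.11 (0.0196), and Usp39, a splicing factor, differed by -0.044 (0.312). Of the 3 anchored to organelles, Usp32 fell in TA by 0.11 (0.0386), and Usp19 and Usp30 were not called. Usp31 and Usp45, in none of these groups, fell in TA by 0.14 (0.0454) and 0.11 (0.0399).

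Several of the calls in TA lay close to the threshold. Without the TA arrays of the 2 animals with raised liver transcripts 9 of the 14 were called, with adjusted p-values of 0.0783 for Usp28, 0.0792 for Usp31, 0.0887 for Usp32, 0.0981 for Usp34 and 0.0898 for Usp45. The count was also 9 without any 1 of Ctrl animal C or mKO animal C at ZT4, either animal B at ZT8, or either animal B at ZT12. Taken singly, the TA calls of Usp28 and Usp31 were each lost in 24 of the 36 fits that left out 1 animal. Those of Usp32, Usp34 and Usp45 were lost in 20, 21 and 22 of them. When arrays were centred on their medians, 11 members were called in TA (1 higher, 10 lower), 10 of them from the 14, without Usp28, Usp32, Usp34 and Usp45. In SOL the call of Usp49 was lost in 24 of 36 fits that left out 1 animal, and without both animals with raised liver transcripts (adjusted p = 0.0929). With array weights 10 members were called in SOL. Within the BM3 animals alone Usp28 was the only member called in SOL, and 8 were called in TA. Within the BM2 and BM2* animals none was called in SOL, and Usp2 alone in TA. No share of all genes is given for these subsets, which hold fewer animals, so their counts give no result about the family.

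Between the muscles, 33 members differed over all animals, 21 higher and 12 lower in TA, against 56.8% of all genes (32.8% higher and 23.9% lower). In Ctrl alone 26 were called (15 higher and 11 lower), against 42.9% of genes (22.9% and 20.0%), and in mKO 29 (16 and 13), against 48.2% (27.8% and 20.4%). Usp45 was higher in TA by 0.56 ± 0.027 (limma, adjusted p = 7.58e-18), in 36 of 36 animals, with a median in Ctrl of 8.58 (8.30 to 8.73) in TA and of 7.94 (7.76 to 8.14) in SOL. Usp38 was higher in TA by 0.39 (35 of 36 animals), Usp25 by 0.34 (36), Usp19, held in the endoplasmic reticulum membrane, by 0.32 (36), Usp44 by 0.31 (32) and Usp48 by 0.30 (35). Usp39 (0.28), Usp37 (0.26), Usp4 (0.20) and Usp7 (0.19) followed.

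On the slow muscle's side Usp11, a paralogue of Usp4, was lower in TA by 0.71 ± 0.031 (adjusted p = 6.05e-19), higher in 0 of 36 animals, with a median in Ctrl of 6.03 (5.80 to 6.34) in TA and of 6.74 (6.60 to 7.01) in SOL, without overlap. Usp20, which acts on internalised adrenergic receptors, was lower by 0.52 (higher in 1 animal), Usp31 by 0.43 (0), Usp13 by 0.41 (0), Usp1, which deubiquitinates FANCD2, by 0.29 (2) and Usp28 by 0.26 (8). Usp2 was lower by 0.25 over all animals (higher in 7), a mean of the unequal values of both genotypes. Usp46 (-0.21), Usp32 (-0.19) and Usp22 (-0.17) followed.

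No genotype effect, rhythm or difference between muscles over all animals was called for 9 members: Usp5, Usp8, Usp9y, Usp26, Usp27x, Usp29, Usp33, Usp35 and Usp40. How many of all genes had none of these calls was not counted, so the 9 give no result about the family. Of the 50 members 40 had a mean signal above the median of all genes (6.75) and 10 at or below it. Usp9x and Usp9y are near-identical copies on the sex chromosomes whose probes may share signal, which was not tested. Usp9y had a median of 3.28 in Ctrl SOL and 3.29 in Ctrl TA, and Usp9x of 10.28 and 10.44. The lowest value on any array was 2.12, so Usp9y lay near the floor, where a change may be missed. Usp26, Usp29 and Usp35 also had medians below 6.75 in both muscles of both genotypes, and a change in them may be missed as well. A single probe set does not tell the isoforms of Usp2 apart.

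Outside the family, 29 of 30 listed deubiquitinases of other families were measured, of which 3 rose and 2 fell in SOL, and 4 rose and 6 fell in TA. The shares of all genes that rose and fell, 3.56% and 3.54% in SOL and 6.76% and 8.06% in TA, apply to this and the next lists, and the median effect of the 29 was -0.012 in SOL and 0.025 in TA. Otub1, an inhibitor of ubiquitin-conjugating enzymes, rose by 0.21 in SOL (adjusted p = 0.00111 by limma) and 0.20 in TA (0.000215). Cyld, which trims linear and lysine-63 chains in NF-kappaB signalling, fell by 0.15 (0.0204) and 0.23 (0.00330), and Zranb1 by 0.11 (0.0197) and 0.24 (6.41e-05). Otud1 fell in TA by 0.47 (4.55e-06), and its amplitude in Ctrl SOL was 1.04 with a peak at ZT17.5 (5.86e-08). Otub2 rose in TA by 0.34 (0.000115), was higher in TA than in SOL by 1.64, and was the only gene of this list with a called interaction (0.40, adjusted p = 8.31e-05). Another list held 10 measured genes (median -0.041 in SOL and -0.048 in TA), cofactors of the family and the similarly named Usp6nl and Uspl1. Of these 1 rose in each muscle, G3bp1, the partner of Usp10 (0.26 and 0.27, adjusted p = 0.000103 and 0.000200 by limma). In TA 4 fell, among them Atxn7 of the SAGA module by 0.18 (0.000793). Usp6nl, listed for its name and not as a cofactor, was also among the 4 and fell by 0.18 (0.0107). Of 8 reported substrates of Usp2 (median -0.036 in SOL and -0.0051 in TA), 1 rose and 1 fell in SOL, and 1 rose and 2 fell in TA. Cry1 rose by 0.19 in SOL (0.00352) and 0.18 in TA (0.000685). Per2 fell by 0.25 (0.00351) and 0.42 (6.68e-11). Per1 fell in TA by 0.67 (2.06e-09) and differed by -0.20 in SOL (0.231). These are RNA levels, and the proteins were not measured.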

How the data were processed

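RNA of both muscles was hybridised to 72 arrays, 1 for each muscle of each of 36 animals, which are separate animals per the labels. The deposited values are log2 signals that the authors had normalised with RMA, per the submitters' processing notes; its version and the annotation build are not given in the sources used here. Of 21225 probe sets 20239 had 1 symbol in the array's annotation and 986 were not listed. All 50 members had 1 probe set and matched RefSeq's gene table (GRCm38.p6). The members, lists, tests and alternatives were chosen with earlier results of these data known.

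Genotype effects were fitted per muscle in R 4.3.3 (limma 3.58.1) from 36 arrays and 12 group means, and are mKO minus Ctrl averaged over 6 times. Rhythm was a cosine and sine of 24 h per genotype, tested jointly. Muscles were compared on TA minus SOL within animals. P values were adjusted over 20239 genes with a threshold of 0.05. Shares of all genes are at this adjusted threshold, and none is given for counts of members by unadjusted p. The fits were tested on simulated data. Named members were Usp2, up to 10 called members per direction with the largest change and up to 6 called rhythms with the smallest p. Of each role group up to 3 were named, and of each other list up to 2 per direction. Single genes beyond this were added after their values were seen (the clock genes Nr1d2, Npas2 and Bhlhe41, the output factors, Usp54 values).

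SOL and TA of an animal are paired per the labels, and their deviations from the means of their groups had a median correlation of 0.046 (-0.197 to 0.352, over 0.1 in 11 of 36 pairs). Alternatives changed arrays, scaling, weights, level filter, blocks, rhythm model and animals. The number of arrays limits the precision.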

Additional observations from a re-analysis of the deposited data

Results flagged for a closer look

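The effect of the genotype on Usp2 differed between the muscles: mKO minus Ctrl was -0.61 in TA and -0.19 in SOL, a difference of -0.42 (log2, adjusted p = 4.86e-07 by limma on differences within 36 animals), with TA below SOL in 18 of 18 mKO animals and in 11 of 18 Ctrl animals. The value lay between -0.43 and -0.40 when any 1 animal was left out. What lies behind it was not tested.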

How the results depend on the processing

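The genotype effects of Usp2 in SOL and TA and its interaction kept their direction under all alternatives run, and no called value reversed. Without the TA arrays of both Ctrl animals with raised liver transcripts 9 members were called in TA, and without those animals in both muscles 9 in TA and 6 in SOL, with Usp2 at -0.21 in SOL; both alternatives were added after seeing the data. With arrays centred on their medians, rhythm was called for 4 members in Ctrl SOL and 1 in mKO TA. Under a free shape over the 6 times these counts were 3 and 1, with 2 in mKO SOL, and with an added 12 h cosine 3 and 1. With array weights 10 members were called in SOL, 6 at single times in SOL, 18 at single times in TA and 4 for the interaction, with 21 in TA over the 6 times. Calls over all genes grew as well, from 720 higher and 716 lower to 1060 and 1066 in SOL and from 1369 and 1631 to 2773 and 2615 in TA. Over genes above the median level, which leaves fewer genes to adjust over, 2 members were called at single times in SOL and 3 for the interaction. The change of the Usp2 rhythm in TA passed the threshold for 1 member, Usp2 itself, with a trended robust variance (adjusted p = 0.0438), above the median level (0.0390) and with the animals' series as a block (0.0376). With the muscles unpaired 2 members were called for the interaction. Within the BM3 animals 1 member was called in SOL and 8 in TA, and Usp2 in SOL was -0.13 (adjusted p = 0.336). Within the BM2 and BM2* animals 0 were called in SOL, 1 in TA and 0 for the interaction, Usp2 being -0.43 in SOL (0.0624) and -0.45 for the interaction (0.475). These subsets hold fewer animals and compare the genotypes at different times (ZT0, ZT4, ZT8 and ZT16 in BM3, ZT8 and ZT12 in BM2 and BM2*). For the other settings the cause was not tested. Beyond the calls over all genes given for array weights, no shares of all genes are given for the alternatives. Their counts of members therefore give no result about the family.

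With any 1 animal left out, members called ranged from 5 to 8 in SOL, from 9 to 15 in TA, from 0 to 1 at single times in SOL and from 2 (without mKO animal B at ZT12) to 8 (without mKO animal C at ZT12) at single times in TA, where 4 were called with all animals. For rhythm the range was 4 to 8 in Ctrl SOL, 3 to 4 in mKO SOL, 3 to 4 in Ctrl TA and 1 to 2 in mKO TA, for its change 0 to 1 in TA, and for the interaction 1 to 2. The adjusted p of the Usp2 rhythm change in TA ranged from 0.0115 to 0.277.

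Ctrl and mKO animals share replicate letters, but they are separate animals per the labels, and the letters were not taken as pairs. The deviations of same-lettered animals correlated with a median r of 0.153 (-0.280 to 0.322, over 0.1 in 21 of 36 pairs). This was above the median of 0.046 for SOL and TA of the same animal, and what the letters share was not tested. With the letter as a replicate block 7 members were called in SOL and 14 in TA, Usp2 was -0.19 and -0.61, and its rhythm change in TA had an adjusted p of 0.0524.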
